A study of Mus musculus with 8 samples.

Results

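The response to TGFβ1 was compared between 2 mouse pancreatic ductal adenocarcinoma (PDAC) cell lines, KCS-B73 and KCS-B87 (hereafter B73 and B87). For each gene, the response of a line was the log2 fold change from SB505124 to TGFβ1, averaged over the 2 *Smad4* states, and the line difference was the response of B87 minus that of B73. All 8 RNA-seq libraries of the series entered the comparison, 4 from each line. Each was derived from a primary tumor in a KC-shSmad4 mouse, in which *Ptf1a*-Cre, active in the pancreas, switches on the transactivator rtTA3 with mKate2 from *Rosa26*. The transactivator, given doxycycline (Dox), turns on a GFP-linked hairpin RNA (shRNA) at *Col1a1* that silences *Smad4*. Dox was therefore present in the Smad4-off cultures and had been withdrawn for 5 days in the Smad4-on cultures. Both kinds of culture then received, for 24 h, either 100 pM recombinant TGFβ1 or 2.5 µM SB505124, a kinase inhibitor of the TGFβ type I receptor, so that no library came from untreated cells.

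The limits of these lines as models of a line difference follow from their number. Each line stands for 1 tumor, the cells had been passaged at least 5 times on collagen-coated plates, and which of the study's Smad4 shRNAs each line carried is not given in the sources used here. There was 1 library per line, *Smad4* state and treatment. The line difference could therefore be measured once in Smad4-off and once in Smad4-on cells. The spread behind every p-value below came from how the lines differed between these states, partly pooled across genes, and not from replicate cultures. Without a line-by-Smad4 term, a line gap that differs between *Smad4* states under both treatments also counts as spread. A difference between lines and a difference between cultures cannot be told apart.

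TGFβ ligands signal through type II and type I receptor kinases, which phosphorylate SMAD2 and SMAD3. These bind SMAD4 and enter the nucleus, where they act with other transcription factors that differ from cell to cell. In epithelial tumor cells the pathway is known for halting proliferation, for inducing extracellular matrix and for driving epithelial–mesenchymal transition (EMT). It also induces its own inhibitors, among them the inhibitory SMAD *Smad7*, the SMAD corepressor *Skil* and *Pmepa1*, which sequesters receptor SMADs.

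The deposited counts totalled 18389235 to 23440550 per library, and 14301 of 53465 genes passed the filter on low counts. Levels are given in CPM, the count of a gene scaled to a common library size after TMM normalization. A count of 3, the smallest level taken as detectable, corresponded to 0.125 to 0.162 CPM, which covers counting error only. *Smad4* itself was at 33.7 and 34.9 CPM under SB505124 and at 34.7 and 35.5 CPM under TGFβ1 in Smad4-off cells of B73 and B87. In Smad4-on cells it was at 97.4 and 114 CPM under SB505124 and at 117 and 115 CPM under TGFβ1. Every library thus matched its *Smad4* label, and the lines did not stand apart in *Smad4* level. The 8 epithelial markers summed to 3970 to 6220 CPM in B73 and 1220 to 2110 CPM in B87, most of it keratins, while *Epcam* was at 2.11 CPM or less. Markers of leukocytes summed to at most 6.59 CPM, of acinar cells to 1.37 CPM and of endothelial cells to 26 CPM, of which *Kdr* made up as much as 25.2 CPM, and those of fibroblasts are given with the matrix genes below.

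The responses of the lines were broadly alike. With edgeR, 548 of 14301 genes rose in B73 (3.83%) and 821 fell (5.74%), and in B87 692 rose (4.84%) and 752 fell (5.26%), calling a gene at an adjusted p under 0.05 and a change of over 2-fold. The 448 genes that rose in both lines were 81.8% of those in B73 and 64.7% of those in B87. The 517 that fell in both were 63% and 68.8%. Of the 1847 genes called in either line, 1815 had fitted responses of the same sign. Across all tested genes the responses had a Pearson correlation of 0.837, a description over genes that share 8 libraries, and SDs of 1.04 and 1.05 in B73 and B87. The line difference had a median of 0.00384 and a median size of 0.191 on the log2 scale.

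**Figure D1:**
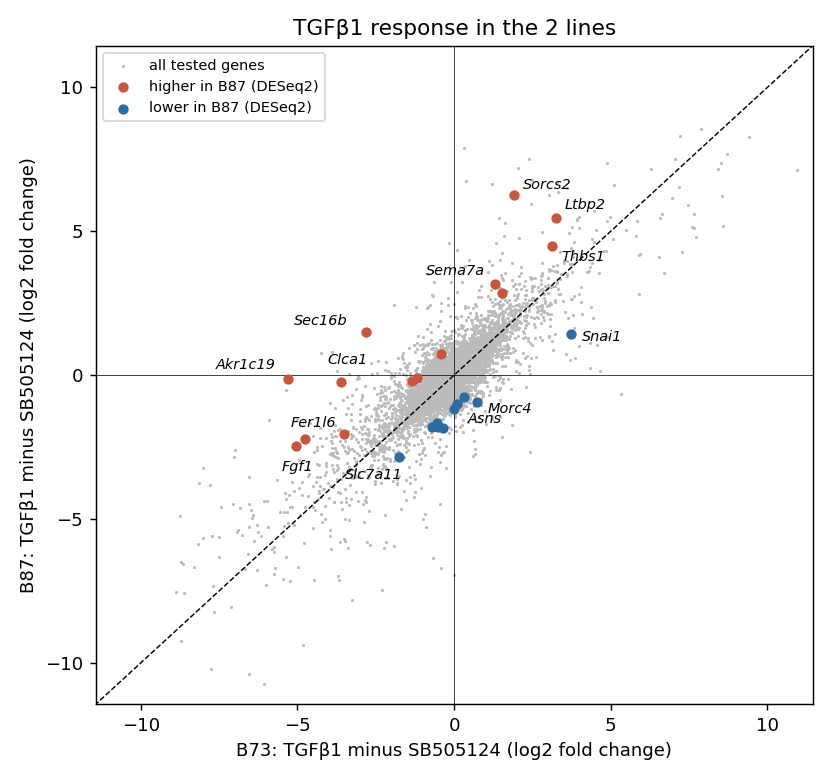
Each point is 1 of 14301 tested genes, placed by its log2 fold change from SB505124 to TGFβ1 in B73 (x axis) and in B87 (y axis), with equal responses on the dashed line. Colored points are the 24 genes called by DESeq2 for a line difference, 14 above the dashed line and 10 below it.

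No gene was called for a line difference by the edgeR model with the 4 groups, the line and the line-by-treatment term. It called 0 of 14301 genes (0%), the smallest adjusted p was 0.34, shared by 17 genes, and 1198 genes (8.38%) had an unadjusted p under 0.05. DESeq2 with the same terms called 24 of 12695 genes, 14 with a higher response in B87 (0.11%) and 10 with a lower one (0.0788%). In that fit 593 genes had an unadjusted p under 0.05. As a share of its genes this is below the cutoff itself, so DESeq2 gave no excess of p-values under 0.05. Much smaller p-values were present all the same, and 53 genes had an adjusted p under 0.05. When edgeR was also given a line-by-Smad4 term, which takes up any part of the line gap that differs between *Smad4* states, it called 158 genes, 107 higher in B87 (0.748%) and 51 lower (0.357%). The biological coefficient of variation was 0.114 without that term and 0.0569 with it, and 1 residual degree of freedom remained in place of 2. All 24 DESeq2 genes were among the 158. The accounts below describe these 24 genes, which were chosen after the edgeR model had called none, and in that model their adjusted p ran from 0.34 to 0.563.

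The test favors, but does not require, differences that are alike in the 2 *Smad4* states. The shared sign of all 24 in both states is therefore not a separate result. In 18 of them the difference exceeded 2-fold in each state. The calls changed with the loss of a library. *Aldh1l2*, *Fgf1*, *Ildr2*, *Pdlim2*, *Psph*, *Sec16b*, *Slc7a11*, *Snai1*, *Tpm2* and *Tsku* did not keep theirs in any such DESeq2 fit. When an SB505124 library was left out, DESeq2 called 29 genes without B73 Smad4 off, 28 without B87 Smad4 off, and 8 without the Smad4-on library of either line. When a TGFβ1 library was left out, it called 13 genes without the Smad4-off library of either line, 5 without B73 Smad4 on and 4 without B87 Smad4 on. *Thbs1* was called in all 8 of these fits, *Sorcs2* in 7, *Asns* and *Akr1c19* in 4, 10 further genes in 1 or 2, and 10 in none, while all 24 kept their sign in every one.

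**Figure D2:**
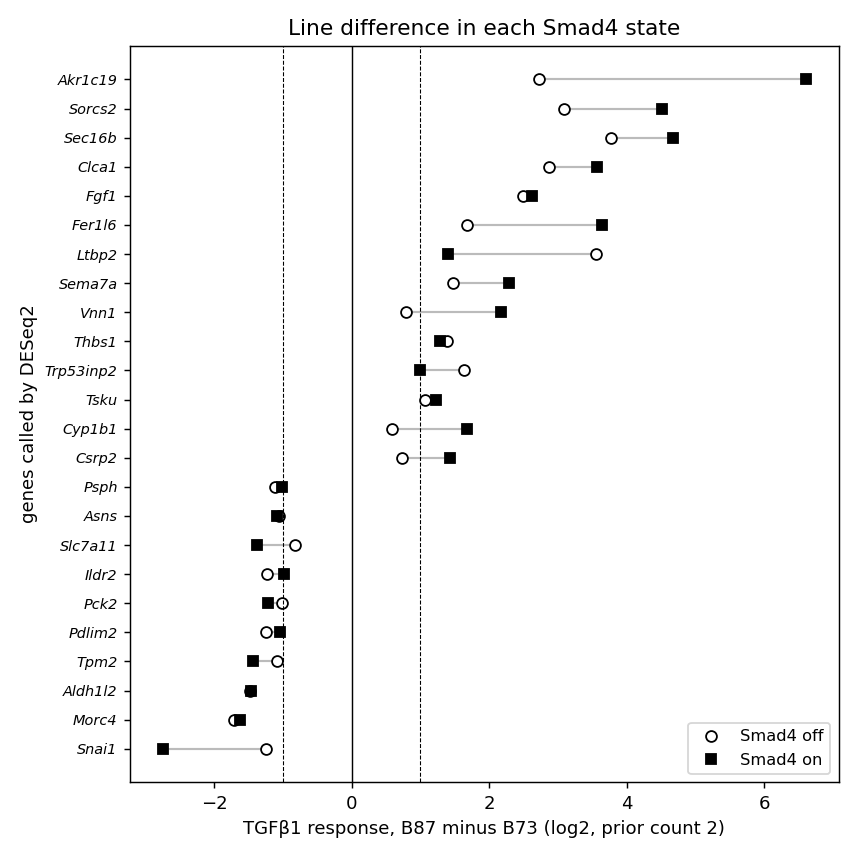
The line difference of the 24 genes called by DESeq2, as log2 CPM with a prior count of 2, in Smad4-off cells (open circles) and Smad4-on cells (filled squares). Dashed lines mark a 2-fold difference, and the distance between the symbols of a gene is widest for *Akr1c19* (2.73 and 6.61). The test favors genes whose states are alike, so likeness here is not a separate result.

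The reference targets of the pathway other than *Tgfbi* rose in both lines. *Smad7* rose by 2.13 ± 0.108 (log2, SE) in B73 and 2.29 ± 0.108 in B87, *Skil* by 2.10 ± 0.0843 and 2.14 ± 0.0838, and *Pmepa1* by 3.50 ± 0.224 and 3.98 ± 0.229. *Ctgf*, a matricellular target, rose by 3.15 ± 0.155 and 3.11 ± 0.154. Their line differences of 0.16, 0.04, 0.48 and -0.05 had edgeR adjusted p from 0.697 to 0.971, in a model that called no gene, so these values do not show equal responses. For *Pmepa1* the difference was 0.04 in Smad4-off and 0.91 in Smad4-on cells. *Tgfbi* had negative fitted responses, -2.32 ± 1.21 in B73 and -3.75 ± 1.33 in B87. It was close to the detection limit in several libraries (0.051 to 7.61 CPM) and passed the test in neither line. Among 10 feedback regulators, 5 rose and 1 fell in each line, and the median line difference was 0.0445, with none called by any of the 3 fits and *Bambi*, a decoy receptor at low level, at -0.75 (0.14 in Smad4-off and -1.36 in Smad4-on cells). Of 13 ligands and receptors, 3 rose in each line and none was called for a line difference, and the same was true of the 8 SMAD genes (1 rose and 2 fell in each line).

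Of the 10 genes that DESeq2 called for a lower response in B87, 5 belong to amino acid, one-carbon or related metabolism, a grouping made after the calls were seen. All 5 are among the 49 tested members of a list described below. *Asns*, asparagine synthetase, was at 160 and 143 CPM under SB505124 and 147 and 173 CPM under TGFβ1 in B73 (Smad4 off, then on, here and in each list below). In B87 it was at 193 and 172 CPM under SB505124 and at 85.5 and 97.7 CPM under TGFβ1. The TGFβ1 libraries of B87 lay below all 6 others, which overlapped. The line difference was -1.08 ± 0.0935, with an adjusted p of 1.08e-08 in DESeq2 and 0.34 in edgeR. *Psph*, which completes serine synthesis, was at 41.4 and 33.2 CPM and then 46.1 and 44.9 CPM in B73, and at 67.1 and 48.5 CPM and then 34.4 and 32.6 CPM in B87. The TGFβ1 libraries of B87 lay below its SB505124 libraries and below the TGFβ1 libraries of B73, and overlapped with SB505124 in B73. The difference was -1.07 ± 0.124 (DESeq2 adjusted p 0.00284). Neither gene reached 2-fold in its response in B87 (-0.99 and -0.77 on the log2 scale).

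A further 3 genes of this kind were called. *Aldh1l2*, the mitochondrial 10-formyltetrahydrofolate dehydrogenase, was at 15.3 and 12.8 CPM under SB505124 and 10.7 and 11 CPM under TGFβ1 in B73. In B87 it fell from 46.7 and 44.3 CPM to 11.6 and 13.8 CPM, so that a gap between the lines under SB505124 (1.70 on the log2 scale) was all but gone under TGFβ1 (0.22). *Pck2*, mitochondrial phosphoenolpyruvate carboxykinase, went from 127 and 78.3 CPM to 87.9 and 53.2 CPM in B73 and fell from 141 and 114 CPM to 47.8 and 33.4 CPM in B87. *Slc7a11*, the cystine importer, fell in both lines, from 20.1 and 36.1 CPM to 9.08 and 6.94 CPM in B73 and from 83.2 and 201 CPM to 21.2 and 14.9 CPM in B87. The line differences of these genes were -1.48 ± 0.174, -1.12 ± 0.166 and -1.10 ± 0.183, with DESeq2 adjusted p of 0.0032, 0.000678 and 0.0171.

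Many such genes are known targets of ATF4, the transcription factor of the amino acid and integrated stress responses, so a list of 50 ATF4 and amino acid response genes was drawn up after these values had been seen. Of its 49 tested members, 42 had a negative line difference, 40 of them in both *Smad4* states, and the median was -0.489 (49.4% negative and a median of 0.00385 over all tested genes). The 7 positive ones were those of *Nupr1* (0.99), *Gdf15* (0.75), *Ddit4* (0.69), *Slc7a3* (0.56), *Ppp1r15a* (0.11), *Sesn2* (0.06) and *Slc38a2* (0.05), so the list did not move as 1. The median response was 0.11 in B73 and -0.524 in B87, and the response itself was called for few members, 2 higher and 4 lower in B73 and 3 higher and 10 lower in B87. The line-by-Smad4 fit called 8 members lower in B87, the 5 above and *Chac1*, *Trib3* and *Pycr1*, and none higher. *Chac1*, a glutathione-degrading enzyme, was at 7.49 and 6.54 CPM and then 11.6 and 14.9 CPM in B73, and at 8.39 and 7.49 CPM and then 4.48 and 6.32 CPM in B87, a difference of -1.48 ± 0.22. DESeq2 gave 17 members an adjusted p under 0.05, of 53 among all 12695 genes, and 12 of the 17 had a difference of under 2-fold. *Nupr1*, a stress-induced chromatin protein, had a positive one (0.99, DESeq2 adjusted p 0.042). Negative ones included the serine synthesis enzymes *Phgdh* (-0.71 ± 0.104) and *Psat1* (-0.83 ± 0.12) and the mitochondrial folate enzymes *Shmt2* (-0.97 ± 0.148) and *Mthfd2* (-0.89 ± 0.123). *Atf4* mRNA itself was at 281 and 274 CPM under SB505124 and 364 and 440 CPM under TGFβ1 in B73, and at 285 and 239 CPM and then 259 and 292 CPM in B87. Its difference of -0.45 ± 0.117 was under 2-fold, so no fit called it. The adjusted p was 0.366 in DESeq2 and 0.00702 in the line-by-Smad4 fit.

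ATF4 pairs with C/EBP proteins on elements of the form TGATGNAA. These letters, on either strand (TTNCATCA on the other), were looked for in the 250 bases before the annotated starts. Of the 8 ATF4-list genes called by the line-by-Smad4 fit, 7 had a promoter in the RefSeq table and 5 held a match (71.4%). The whole list had 10 of 39 (25.6%), tested genes 2.37% and all genes with a promoter 3.91%. Among the 107 genes called higher in B87, 2 of 81 promoters held one (2.47%), and among the other genes called lower 2 of 27 (7.41%). The 5 promoters with a match follow, from RefSeq on GRCm38.p6, 5′ to 3′ on the gene's strand with the match in capitals. They are shown because they belong to the genes that carry the line difference in this group. The list was drawn up from known ATF4 targets after the values had been seen, so a higher share than in all genes follows from that choice. The 5 are among the 10, and the 8 genes were picked from the list by their line difference. With 7 promoters, the shares within the list are a description only. Whether the matches bear on the line difference was not tested.
*Asns*, chr6:7693210-7693459, minus strand: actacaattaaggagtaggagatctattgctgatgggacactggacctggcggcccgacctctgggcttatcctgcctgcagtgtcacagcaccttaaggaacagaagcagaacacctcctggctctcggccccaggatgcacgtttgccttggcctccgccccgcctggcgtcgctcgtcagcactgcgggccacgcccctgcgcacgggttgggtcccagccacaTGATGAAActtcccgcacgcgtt
*Chac1*, chr2:119350992-119351241, plus strand: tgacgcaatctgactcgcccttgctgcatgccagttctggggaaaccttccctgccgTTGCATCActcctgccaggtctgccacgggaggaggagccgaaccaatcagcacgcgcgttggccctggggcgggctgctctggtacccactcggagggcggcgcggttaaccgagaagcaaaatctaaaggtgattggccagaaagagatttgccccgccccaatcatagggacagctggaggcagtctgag
*Pck2*, chr14:55540016-55540265, plus strand: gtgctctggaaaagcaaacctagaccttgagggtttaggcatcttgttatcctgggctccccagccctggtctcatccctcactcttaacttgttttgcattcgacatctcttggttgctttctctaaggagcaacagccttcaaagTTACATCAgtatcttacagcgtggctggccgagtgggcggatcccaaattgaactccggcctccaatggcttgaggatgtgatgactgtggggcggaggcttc
*Pycr1*, chr11:120643749-120643998, minus strand: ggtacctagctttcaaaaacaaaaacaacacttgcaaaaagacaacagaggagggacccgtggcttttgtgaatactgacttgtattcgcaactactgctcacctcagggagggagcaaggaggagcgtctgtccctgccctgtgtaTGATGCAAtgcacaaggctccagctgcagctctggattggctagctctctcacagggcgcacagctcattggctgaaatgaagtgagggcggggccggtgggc
*Slc7a11*, chr3:50443614-50443863, minus strand: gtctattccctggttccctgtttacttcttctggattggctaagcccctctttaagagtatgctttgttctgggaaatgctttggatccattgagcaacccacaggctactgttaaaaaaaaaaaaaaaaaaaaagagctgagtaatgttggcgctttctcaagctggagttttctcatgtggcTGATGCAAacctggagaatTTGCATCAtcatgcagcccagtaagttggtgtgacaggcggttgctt

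The match began 23 bases before the start in *Asns*, 193 in *Chac1*, and 103 in both *Pck2* and *Pycr1*. *Slc7a11* held a pair of matches, 66 and 47 bases before the start, on opposite strands. A match describes the letters in these windows, and no binding was measured.

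Proliferation genes shifted in the same direction by smaller amounts. All 22 G2/M genes had a negative line difference, in both *Smad4* states, with a median of -0.333, and all 20 S-phase genes did, 19 of them in both states, with a median of -0.398. The medians of the response were -0.285 in B73 and -0.588 in B87 for G2/M genes, and -0.341 and -0.745 for S-phase genes. Of these 42 genes, 0 passed the 2-fold rule for a line difference in any of the 3 fits. The S-phase range was -0.571 to -0.156 and the G2/M range -0.46 to -0.263, so no member differed by 2-fold. *Mcm7*, a subunit of the replicative helicase, was at 245 and 216 CPM and then 202 and 158 CPM in B73, and at 302 and 278 CPM and then 189 and 131 CPM in B87. The TGFβ1 libraries of both lines lay below their SB505124 libraries, by more in B87 (-0.52 ± 0.108, edgeR adjusted p 0.534). *Mki67* went from 1080 and 1340 CPM to 790 and 726 CPM in B73 and from 1250 and 1400 CPM to 778 and 561 CPM in B87, a difference of -0.33 ± 0.149.

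The cell-cycle regulators around them included a pair that passed DESeq2 without reaching 2-fold. *Cdkn1a*, which encodes the cyclin-dependent kinase inhibitor p21, was at 158 and 197 CPM and then 252 and 385 CPM in B73, and at 107 and 134 CPM and then 293 and 387 CPM in B87. *Ccnd1*, cyclin D1, was at 1060 and 1140 CPM and then 860 and 860 CPM in B73, and at 1030 and 1050 CPM and then 580 and 536 CPM in B87. The rise of *Cdkn1a* was called in B87. In B73 it had an edgeR adjusted p of 0.00217 but was under 2-fold (0.82 ± 0.0795), so it was not called. The line difference of *Cdkn1a* was 0.68 ± 0.112. That of *Ccnd1* was -0.54 ± 0.104, with DESeq2 adjusted p of 0.00465 and 0.00607 for the pair. *Myc* was at 122 and 108 CPM and then 169 and 211 CPM in B73, and at 179 and 147 CPM and then 174 and 179 CPM in B87. Its difference of -0.60 ± 0.129 was under 2-fold, so no fit called it. The adjusted p was 0.14 in DESeq2 and 0.00146 in the line-by-Smad4 fit.

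**Figure D3:**
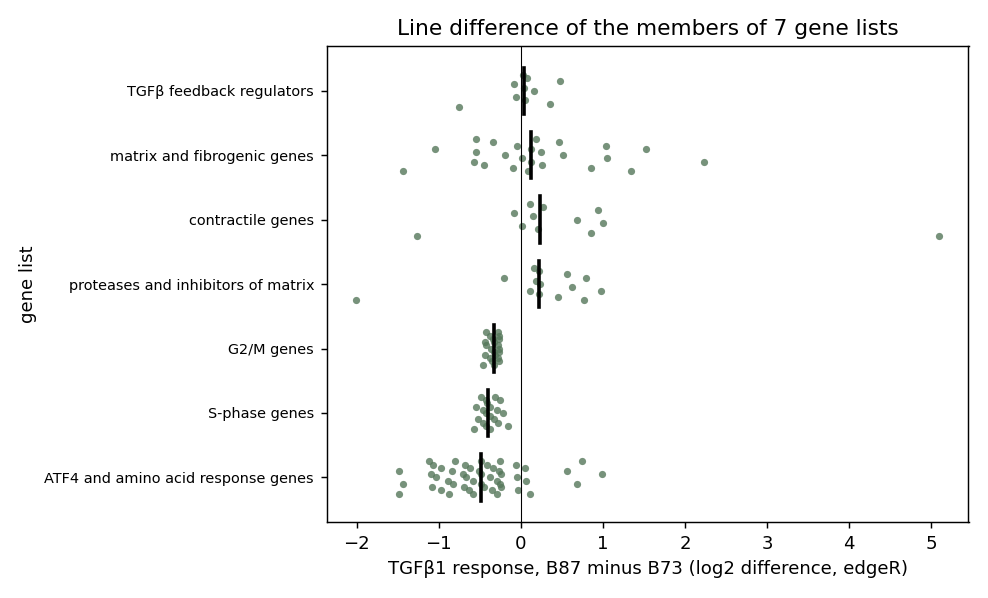
Each point is a tested member of 1 of 7 gene lists (y axis), placed by its line difference in the edgeR model (x axis, log2), and black bars mark the list medians. All S-phase and G2/M genes sit left of 0, the ATF4 list spreads to -1.48, and the feedback regulators center on 0.0445.

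Several genes of the extracellular matrix rose more in B87. *Thbs1*, thrombospondin-1, a matrix glycoprotein that activates latent TGFβ, was at 170 and 190 CPM under SB505124 and at 975 and 2590 CPM under TGFβ1 in B73. In B87 it was at 91.9 and 136 CPM under SB505124 and at 1390 and 4520 CPM under TGFβ1. In each *Smad4* state B87 was the lower line under SB505124 and the higher one under TGFβ1. The responses were 3.14 ± 0.135 in B73 and 4.48 ± 0.144 in B87, and the line difference of 1.34 ± 0.178 had an adjusted p of 3.98e-09 in DESeq2 and 0.34 in edgeR. *Ltbp2*, a latent TGFβ binding protein family member of elastic fibers, rose from 0.549 and 0.811 CPM to 2.19 and 14.3 CPM in B73 and from 0.835 and 2.12 CPM to 38.6 and 92.9 CPM in B87. Its difference of 2.23 ± 0.71 (DESeq2 adjusted p 0.0486) was uneven, at 3.55 in Smad4-off and 1.40 in Smad4-on cells.

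In the matrix list, which was not tested as a whole, 16 of 25 tested members rose in each line. The line difference was positive for 15 and negative for 10. Its median was 0.118 (0.268 in Smad4-off and -0.0197 in Smad4-on cells) and lay between -0.01 and 0.40 when 1 library was left out. The line-by-Smad4 fit called 4 of the members, all higher in B87, the 2 above, *Vcan* (1.04 ± 0.232) and *Col3a1*. *Col3a1* was at 11.5 and 1.84 CPM and then 34.0 and 1.68 CPM in B73, and at 7.64 and 8.36 CPM and then 41.5 and 21.5 CPM in B87, so that it followed *Smad4* state in B73, and its difference was 1.05 ± 1.32 (edgeR adjusted p 0.857). *Fbn1*, fibrillin-1, which is in no list and was picked after its values were seen, rose in both lines, from 9.78 and 17.5 CPM to 24.2 and 38.0 CPM in B73 and from 79.6 and 131 CPM to 315 and 587 CPM in B87 (0.87 ± 0.129, DESeq2 adjusted p 0.00344). The sum of the 6 fibroblast markers was higher in B87 and higher under TGFβ1 in each line. It was 3.08 to 12.8 CPM under SB505124 and 7.6 to 37 CPM under TGFβ1 in B73, and 38.6 to 134 CPM and 207 to 652 CPM in B87. Most of the B87 sum was *Col1a1*. *Pdgfra* was detected in every library, at 12 to 154 counts and up to 6.41 CPM. *Dcn*, *Lum* and *Thy1* had at most 3, 0 and 1 counts in any library. Of the 3 tested markers, 2 had a negative line difference (median -0.457), among them *Col1a1* at -0.54, and *Col3a1* had a positive one. Their part in the result was not tested.

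Contractile genes gave results in both directions. *Tpm2*, β-tropomyosin, was at 29.5 and 59.2 CPM and then 22.8 and 36.5 CPM in B73, and fell in B87 from 27.1 and 54.3 CPM to 9.76 and 12.4 CPM, a difference of -1.27 ± 0.163 (DESeq2 adjusted p 0.0032). *Acta2*, smooth muscle α-actin, rose in both lines, from 10.2 and 59.3 CPM to 31.9 and 195 CPM in B73 and from 20.6 and 130 CPM to 129 and 701 CPM in B87. Its difference of 0.85 ± 0.114 passed the adjusted p of DESeq2 (0.00082) and not the 2-fold rule. Of 12 tested contractile genes, 10 had a positive line difference with a median of 0.237, and *Tpm2* was the 1 that DESeq2 called. The actin-associated LIM protein gene *Pdlim2* was lower in B87 as well, at 59.9 and 41.5 CPM and then 79.8 and 30.9 CPM in B73, and at 28.4 and 21.9 CPM and then 15.8 and 7.90 CPM in B87 (-1.16 ± 0.171). *Csrp2*, a LIM-domain protein of smooth muscle, had the opposite sign, with 68.0 and 96.2 CPM falling to 35.8 and 36.1 CPM in B73 and 52.3, 50.2, 45.6 and 50.8 CPM in the libraries of B87 (1.08 ± 0.203).

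Receptors and signaling genes that rose in both lines included 3 with a larger rise in B87. *Sema7a*, a membrane-anchored semaphorin, rose from 18.4 and 10.0 CPM to 34.7 and 32.1 CPM in B73 and from 5.75 and 2 CPM to 30.5 and 32.4 CPM in B87. The lines differed under SB505124 and met under TGFβ1, and the line difference was 1.87 ± 0.245 (DESeq2 adjusted p 0.000596). *Sorcs2*, a sortilin-family receptor, went from 17.2 and 7.83 CPM to 46.2 and 39.0 CPM in B73 and from 0.308 and 0.125 CPM to 9.12 and 24.6 CPM in B87. B87 stayed below B73 under both treatments. The SB505124 libraries of B87 held 7 and 3 counts, so the rise there was 29.6-fold (95% exact interval 14.1 to 74.8) in Smad4-off and 197-fold (67.1 to 960) in Smad4-on cells, against 2.69-fold and 4.98-fold in B73. The line difference of 4.35 ± 0.798 had an adjusted p of 2.06e-05 in DESeq2 and 0.456 in edgeR. *Trp53inp2*, a regulator of autophagy, rose from 20.8 and 18.7 CPM to 52.4 and 63.0 CPM in B73 and from 9.14 and 13.7 CPM to 72.4 and 91.7 CPM in B87 (1.31 ± 0.239).

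*Snai1*, which encodes the EMT transcription factor SNAIL, went the other way. It was at 0.499 and 0.811 CPM under SB505124 and 4.03 and 15.1 CPM under TGFβ1 in B73, and at 4.96 and 16.7 CPM and then 14.6 and 41.8 CPM in B87. The level in B87 under SB505124 was thus close to that in B73 under TGFβ1, and B87 remained the higher line throughout. The response was 3.72 ± 0.298 in B73 and 1.42 ± 0.208 in B87, a difference of -2.29 ± 0.372 (adjusted p 0.0236 in DESeq2 and 0.377 in edgeR). It was the 1 called gene of 13 tested EMT genes, whose median difference was -0.113. *Morc4*, a nuclear ATPase gene, had responses of opposite sign, 0.73 ± 0.124 in B73 and -0.95 ± 0.123 in B87, neither over 2-fold. It was at 24.6 and 16.7 CPM and then 47.3 and 23.6 CPM in B73, and at 43.8 and 34.7 CPM and then 25.7 and 15.9 CPM in B87 (-1.68 ± 0.175, DESeq2 adjusted p 2.99e-05). *Ildr2*, an immunoglobulin-like domain receptor, was at 103 and 189 CPM and then 78.6 and 92.7 CPM in B73, and fell in B87 from 41.0 and 60.7 CPM to 13.2 and 15.0 CPM (-1.11 ± 0.14).

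Of the 14 genes with a higher response in B87, 8 fell with TGFβ1 in B73. In B87, 3 of these fell as well, 4 did not pass the test, and *Sec16b*, described below, rose. *Akr1c19*, an aldo-keto reductase, fell from 15.5 and 42.3 CPM to 0.386 and 1.43 CPM in B73. In B87 it was at 1.10 and 0.541 CPM under SB505124 and at 0.149 and 2.14 CPM under TGFβ1, where the Smad4-off value rests on 3 counts, so the ratio of TGFβ1 to SB505124 was 0.136 (95% exact interval 0.0263 to 0.446) in Smad4-off and 3.96 (2.09 to 8.04) in Smad4-on cells. The B87 libraries thus went in opposite directions, and the line difference of 5.15 ± 0.985 had a DESeq2 adjusted p of 0.000596. Because the gene family holds near-identical copies, counts of *Akr1c19* are less certain. *Clca1*, a secreted protein of mucous epithelium, fell from 10.1 and 43.5 CPM to 1.80 and 1.68 CPM in B73 and was at 0.966, 2.20, 1.34 and 1.02 CPM in the libraries of B87 (3.36 ± 0.417, DESeq2 adjusted p 0.000266).

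The 3 genes that fell in both lines were at higher levels in B73 than in B87 under SB505124. *Fer1l6*, a ferlin-family gene, fell from 27.2 and 54.7 CPM to 3.00 and 0.561 CPM in B73 and from 9.80 and 9.44 CPM to 3.49 and 1.33 CPM in B87 (2.53 ± 0.501, DESeq2 adjusted p 0.00479). *Fgf1*, a fibroblast growth factor, fell from 17.0 and 26.9 CPM to 1.16 and 0.357 CPM in B73 and from 2.68 and 3.79 CPM to 1.05 and 0.306 CPM in B87 (2.58 ± 0.335). *Vnn1*, pantetheinase, fell from 80.9 and 138 CPM to 14.9 and 5.67 CPM in B73 and from 67.7 and 61.2 CPM to 21.6 and 11.5 CPM in B87 (1.46 ± 0.342). Under TGFβ1 B87 was the higher line for *Fer1l6* and *Vnn1*, and the lines were within 0.17 of each other on the log2 scale for *Fgf1*. *Cyp1b1*, a cytochrome P450 that oxidizes estrogens and polycyclic aromatics, fell from 61.9 and 80.2 CPM to 33.6 and 22.4 CPM in B73 and was at 146, 153, 119 and 136 CPM in B87, above B73 throughout (1.12 ± 0.261, DESeq2 adjusted p 0.0331).

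*Sec16b*, which encodes a protein of endoplasmic reticulum exit sites, was the 1 gene of 14301 called in both lines with opposite signs. It fell from 4.74 and 9.89 CPM to 1.59 and 0.51 CPM in B73 and rose from 0.879 and 1.79 CPM to 4.53 and 2.80 CPM in B87. In each state B73 was the higher line under SB505124 and B87 under TGFβ1. The responses were -2.82 ± 0.3 and 1.5 ± 0.294, and the line difference of 4.32 ± 0.419 had an adjusted p of 0.00012 in DESeq2 and 0.34 in edgeR. *Tsku*, a secreted leucine-rich repeat protein, had fitted responses of -0.41 ± 0.107 and 0.73 ± 0.106 that did not reach 2-fold, at 42.3 and 62.1 CPM and then 37.4 and 39.6 CPM in B73, and at 32.9 and 53.9 CPM and then 61.0 and 80.0 CPM in B87 (1.14 ± 0.151, DESeq2 adjusted p 0.00112).

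**Figure D4:**
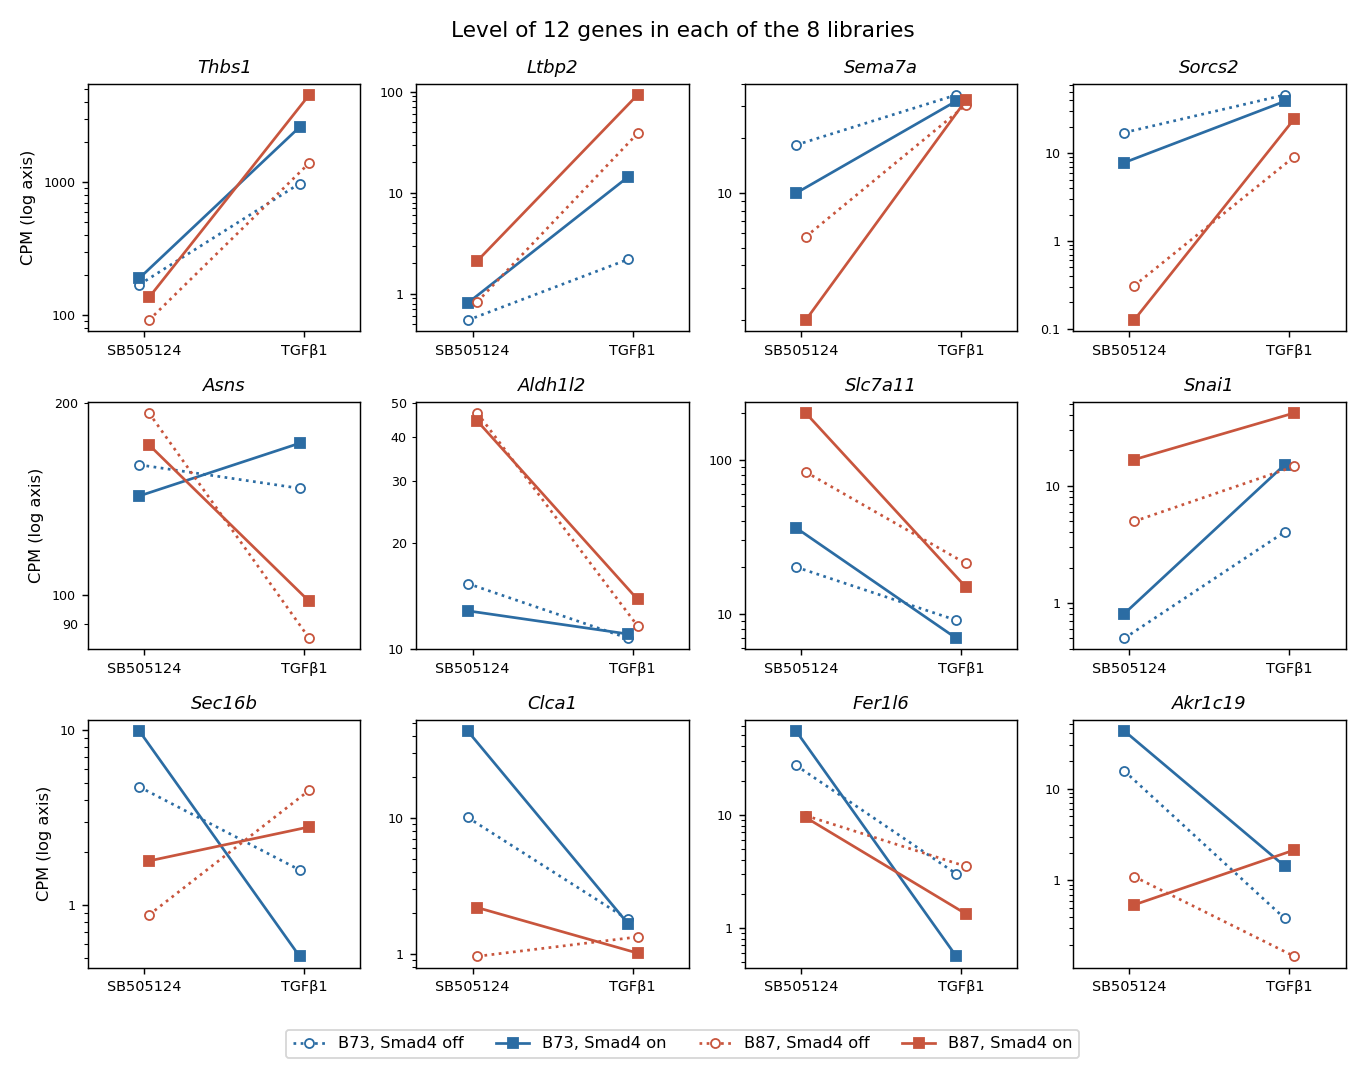
CPM (log axis) of 12 of the 24 genes in each library, with a line from SB505124 to TGFβ1 for each line and *Smad4* state (blue B73, red B87, open circles and dotted lines Smad4 off, filled squares and solid lines Smad4 on). Under TGFβ1 *Asns* is at 85.5 and 97.7 CPM in B87 and at 147 and 173 CPM in B73, the *Sema7a* lines meet under TGFβ1, and the *Sec16b* lines cross.

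Whether a line difference came from the SB505124 or the TGFβ1 libraries varied from gene to gene. In 15 of the 24 genes the fitted gap between the lines was smaller under TGFβ1 than under SB505124, against 51.8% of all tested genes. Of the 24, the response itself was called in both lines for 11, in B87 alone for 5, in B73 alone for 4 and in neither for 4, and the fitted responses had opposite signs in 5. Among the other lists, the line-by-Smad4 fit called *Atoh8* among 9 tested BMP targets, *Klf4* among 9 KLF and RUNX factors, *Gsta1* and *Slc7a11* among 13 NRF2 and glutathione genes, *Cxcl1* among 15 cytokines and *Lama3* among 11 basal genes. *Klf4* was at 113 and 278 CPM and then 54.0 and 45.4 CPM in B73, and at 167 and 165 CPM and then 99.3 and 120 CPM in B87 (1.24 ± 0.44, edgeR adjusted p 0.578). Its difference was 0.31 in Smad4-off and 2.16 in Smad4-on cells and ran from 0.57 to 1.91 when 1 library was left out. *Gsta1*, a glutathione transferase with close family members, fell in both lines, from 33.2 and 133 CPM to 1.11 and 1.07 CPM in B73 and from 19.6 and 46.3 CPM to 2.19 and 0.867 CPM in B87 (1.62 ± 0.49, or 0.86 to 2.12 with 1 library left out). The EMT, epithelial junction, interferon, MHC class I, classical PDAC, YAP and TEAD, Wnt and Notch, cholesterol, glycolysis, ERK and protease lists held no other gene called by DESeq2 than *Snai1*.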

How the data were processed

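RNA-seq counts of 8 libraries were used. Per the labels, poly(A) RNA was made into stranded TruSeq libraries and sequenced as single-end reads. The authors' processing notes name FastQC 0.11.5, Trimmomatic 0.36, STAR 2.5.3a and featureCounts 1.6.3 with mm10 (GRCm38). The deposited table holds raw counts of 53465 Ensembl genes, 1 column per library, not pooled, with a transcript length column deposited beside the counts that was not used. Strand and multimapping settings are not given in the sources used here, so overlapping genes and near-identical copies are less certain.

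Counts were tested in R 4.3.3 with edgeR 4.0.16 (TMM, filterByExpr, quasi-likelihood F-test), with terms for the 4 groups (*Smad4* state by treatment), the line and line-by-treatment, and Benjamini-Hochberg adjustment over 14301 genes. A gene was called at an adjusted p under 0.05 and over 2-fold, the thresholds the study used. Log2 differences and SEs (difference over the square root of F) are from this model. DESeq2 1.42.0 with the same terms, edgeR with a line-by-Smad4 term, other filters, scalings and models, and the loss of each library were alternatives. Per-state values use log2 CPM with a prior count of 2.

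The members and lists were chosen with earlier results of these data known. Named genes were *Smad4*, 5 reference genes, the called genes with a mean log2 CPM of at least 1 and 1 sign in both states (10 each way) and called list members. Since the edgeR model called none, the rule was applied to the 24 genes called by DESeq2; *Akr1c19*, *Tsku*, *Cyp1b1* and *Csrp2* fall outside it and were named so that all 24 are accounted for. *Fbn1*, *Acta2*, *Cdkn1a*, *Ccnd1*, *Myc*, *Mcm7*, *Mki67*, *Atf4*, *Phgdh*, *Psat1*, *Shmt2*, *Mthfd2* and the ATF4 list were added after their values were seen. On counts simulated for 14301 genes, 200 of them given a line-by-TGFβ1 difference of log2 size 2, the edgeR model recovered 94.5%, DESeq2 92% and the line-by-Smad4 fit 93.5%. The changed genes had a mean log2 CPM of at least 1. The simulated lines had the same *Smad4* effect, and the spread of a gene depended on its level alone. These shares check the code and do not give the power of the 3 fits on the real counts. Adjusted p-values that DESeq2 gave as NA stayed NA. Each line and condition had 1 library, so no replicate was averaged. An allele that both lines carry is not reported here.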

Additional observations from a re-analysis of the deposited data

Results flagged for a closer look

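For 24 genes the TGFβ1 response differed between B73 and B87 by DESeq2's test of the difference itself, while none passed in the edgeR model. The log2 difference, B87 minus B73, was 5.15 for *Akr1c19*, 4.35 for *Sorcs2*, 4.32 for *Sec16b* and 3.36 for *Clca1*. It was 2.58 for *Fgf1*, 2.53 for *Fer1l6*, 2.23 for *Ltbp2* and 1.87 for *Sema7a*. Smaller positive differences were those of *Vnn1* (1.46), *Thbs1* (1.34), *Trp53inp2* (1.31), *Tsku* (1.14), *Cyp1b1* (1.12) and *Csrp2* (1.08). The negative differences were -2.29 for *Snai1*, -1.68 for *Morc4*, -1.48 for *Aldh1l2*, -1.27 for *Tpm2* and -1.16 for *Pdlim2*. They were -1.12 for *Pck2*, -1.11 for *Ildr2*, -1.10 for *Slc7a11*, -1.08 for *Asns* and -1.07 for *Psph*. Groups of 2 libraries were too small for a check of outlying libraries.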

How the results depend on the processing

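The count of genes called for a line difference depended on the model. It was 0 in the edgeR model, 0 with DESeq2 size factors, at least 10 counts in every library, an additive *Smad4* term, the fit without *Smad4* state (no replicate block), no 2-fold rule or the test against 2-fold, and 0 without each library. It was 24 with DESeq2, 80 without a filter on low counts and 158 with the line-by-Smad4 term, and 79 of the 80 were among the 158. The DESeq2 count was 49 with the line-by-Smad4 term, 53 without the 2-fold rule, and 4 to 29 without a library. The line-by-Smad4 count was 850 without the 2-fold rule and 7 in the test against 2-fold, and no library could be left out of it, since no residual degree of freedom would remain.

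Genes called for the response in B73 and B87 numbered 1369 and 1444, 877 and 941 with at least 10 counts in every library, 377 and 584 without *Smad4* state (no replicate block), 3311 and 3870 without the 2-fold rule, and 486 and 484 in the test against 2-fold. Without 1 library they ran from 439 to 1479 and from 726 to 1546. Without 1 library, list medians ran from -0.61 to -0.39 for the ATF4 list, from -0.50 to -0.28 for S-phase genes, from -0.43 to -0.26 for G2/M genes, from 0.18 to 0.29 for contractile genes (0.14 with at least 10 counts) and from -0.01 to 0.40 for matrix genes.

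Of 804 values of 54 named genes under these alternatives, 692 kept their direction and side of the threshold, 90 passed it only in the alternative and 22 changed sign. The sign changed in genes with small or noisy differences. Without 1 library, the difference ran from -0.32 to 0.24 for *Ctgf* (0.06 with an additive *Smad4* term and 0.07 with no replicate block), from -0.06 to 0.15 for *Skil*, from -0.03 to 0.35 for *Smad7*, from -0.01 to 0.97 for *Pmepa1*, from -3.46 to 2.29 for *Tgfbi* and from -0.60 to 3.09 for *Col3a1*. With no replicate block every one of the 54 genes had an adjusted p of 1, DESeq2 was not run without the block, and the cause of the shifts was not tested. With 1 library per line and condition, depth limits *Tgfbi*, *Lama3*, *Akr1c19* and *Sorcs2*, each with a library at 3 counts or fewer.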
